A study of Homo sapiens with 6 samples.

Results

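Cytoplasmic ribosomal proteins are the protein part of the ribosome that works in the cytosol. They were taken here as all genes whose annotated symbol is RPL or RPS followed by digits, with the endings of the standard names, plus the acidic stalk genes, FAU and RPSA, and without kinases of protein S6 and pseudogenes. Of 84 RefSeq genes that this rule takes, 63 had a probe set (a group of probes read as 1 value) annotated to that gene alone, out of 18377 such genes on the array. Of the 63, 24 encode proteins of the small subunit and 39 proteins of the large subunit. Another 11 genes lay only on probe sets shared with other symbols and are described apart, and the other 10 were not analysed here. RPL36AL was counted as a member although its symbol ends in 2 letters.

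The samples were TF-1, a human leukaemia line labelled as acute myeloid and known as an erythroleukaemia that needs a cytokine to grow. The 3 control arrays (control 1 to 3) came from cells transfected with a control vector, which the labels call pEGFP, and the 3 PRL-3 arrays (PRL-3 4 to 6) from cells transfected with human PRL-3, a tyrosine phosphatase encoded by PTP4A3. Both groups grew in 90% RPMI and 10% FBS with 5 ng/ml of human IL-3, and the series asks what PRL-3 does in the making of leukaemia. The labels name no promoter, clone, selection or time after transfection, and do not say whether the 3 arrays of a group were separate cultures. P-values therefore measure the spread between these arrays only, which may be technical. PTP4A3 itself read 7.92, 8.03 and 7.97 on the control arrays and 10.81, 10.93 and 10.79 on the PRL-3 arrays (log2 intensity), as the labels say. Of 12 TF-1 marker genes 10 were measured, at a median percentile of 78.9 among all genes, against 23.2 for 9 lymphocyte markers and 32.4 for 12 stromal and epithelial markers. CD34 (percentile 96.3) and ANPEP (92.0) were the brightest of the first, at differences of -0.44 and -0.36 that did not pass (adjusted p = 0.0882 and 0.332, limma), and KIT (1.01) and CSF2RA (0.27) rose, with adjusted p = 0.000721 and 0.0407 in limma; CSF2RA lost its call whichever array was left out (adjusted p = 0.0695 to 0.149). In all, 7 of the 10 TF-1 markers had differences below 0, the lowest in CSF2RB (-0.57, adjusted p = 0.104, limma). IL3RA (percentile 53.0) and EPOR (57.0) were the dimmest of them. The lists overlapped in signal: KRT18 of the stromal and epithelial markers lay at percentile 80.3 and COL1A1 at 62.1, and the other 10 lay below the median gene. Of the lymphocyte markers PRF1 rose by 0.50, with adjusted p = 0.00732 in limma, at percentile 58.4, and the other 8 did not pass. NKG7 lay as high, at percentile 58.7 with a difference of -0.003, and CD3D, CD3E, CD3G, CD2, CD8A, CD79A and MS4A1 lay at percentiles of 6.57 (MS4A1) to 36.6 (CD79A), with differences of -0.12 to 0.24; the part of other cells in the results below was not tested.

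Each ribosome holds a single copy of nearly every ribosomal protein, so cells make these proteins in step. Much of that control lies in translation: ribosomal protein messages begin with a run of pyrimidines, the terminal oligopyrimidine (TOP) tract, through which mTOR signalling decides how much of each message is read. Their RNA is among the most abundant in a growing cell. Red cell precursors are known to suffer most when a ribosomal protein runs short, as in Diamond-Blackfan anaemia, where 1 copy of such a gene is mutated, and in the 5q- syndrome, where a copy of RPS14 is lost. A few genes have an expressed copy, such as RPS27L beside RPS27 and RPL39L beside RPL39.

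Most members were bright on all arrays. Of the 63, 32 lay in the top 1% of all genes by signal, 51 in the top 10%, and 2, the paralog genes RPL3L and RPL10L, below the median gene. These percentiles rank signals of different probe sets, which depend on the probes as well as on the RNA. Per array the members made up 3.65%, 3.51% and 3.45% of the summed intensity of all genes in control 1 to 3, and 3.76%, 3.73% and 3.65% in PRL-3 4 to 6. The groups overlapped, since PRL-3 6 lay just below control 1.

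Against control, 5 of the 63 genes rose with PRL-3 and 0 fell; 58 did not pass (limma over all 18377 genes, Benjamini-Hochberg adjusted p under 0.05). In such bulk samples fewer cells with a message and less of it per cell cannot be told apart. The 5 were RPS27L, RPL17, RPS24, RPL39L and RPS29, with differences of 0.33 to 0.52 on the log2 scale, or 1.25- to 1.43-fold. Except for RPS24 they were dim for members: RPS27L, RPS29, RPL39L and RPL17 lay at percentiles of 59.3, 74.4, 81.2 and 84.0, where the median member lay at 99.1. Among the 32 members in the top 1% by signal 1 rose, and among the other 31, 4 did. Median differences in these parts were 0.09 and 0.10. Among all genes 4.58% were called higher and 3.11% lower, so 5 of 63 higher is a share above, and 0 of 63 lower a share below, that of all genes, on counts this small. Bright genes were called more often: of the 1787 other genes in the top 10% of signal, 112 were called higher and 109 lower. At an unadjusted p under 0.05, 15 members were higher and 1 lower, where 10.6% and 9.6% of all genes were. The unequal-variance test of each gene alone called 0 members in either direction, where 0.0381% of all genes were called higher and 0.0218% lower. At an unadjusted p under 0.05 it had 9 members higher and 1 lower, where 7.57% and 6.92% of all genes were. With single arrays left out, 1 to 4 members passed as higher and 0 or 1 as lower. The shares of all genes called higher were then 3.11%, 2.11% and 4.3% without control 1, 2 and 3, and 2.2%, 4.31% and 2.35% without PRL-3 4, 5 and 6; called lower were 1.64%, 0.969% and 4.06%, and 1.08%, 2.54% and 1.24%. Array weights called 14 members higher and 2 lower, where 11.5% and 12.5% of all genes were, and an intensity trend with robust variances called 3 and 0, where 4.15% and 2.66% were. The difference lay above 0 in 46 of 63 members, against 45.1% of all genes and 958 of the 1787 other genes in the top 10% of signal. The members' median difference was 0.10, against -0.02 over all genes and 0.02 over the other genes in the top 10% of signal. After quantile normalization, which forces the arrays to 1 distribution, the members' median was 0.03 and 38 of 63 lay above 0.

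**Figure D1:**
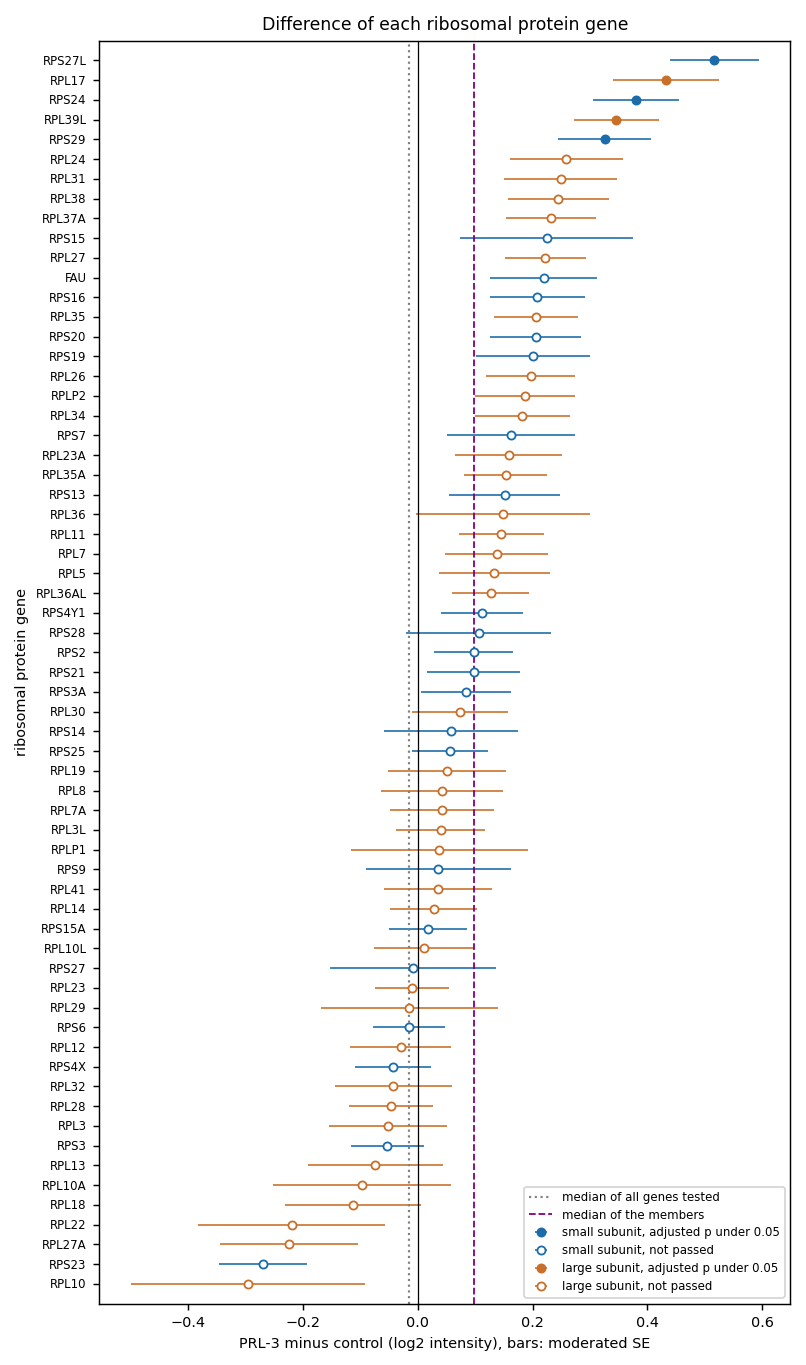
PRL-3 minus control in log2 intensity (horizontal axis) for each of the 63 ribosomal protein genes, with the moderated SE as bars; blue marks the small and orange the large subunit, and filled points the genes past adjusted p 0.05. The 5 filled points are the highest, and the median of the members (dashed, 0.10) lies above that of all genes (dotted, -0.02).

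**Figure D2:**
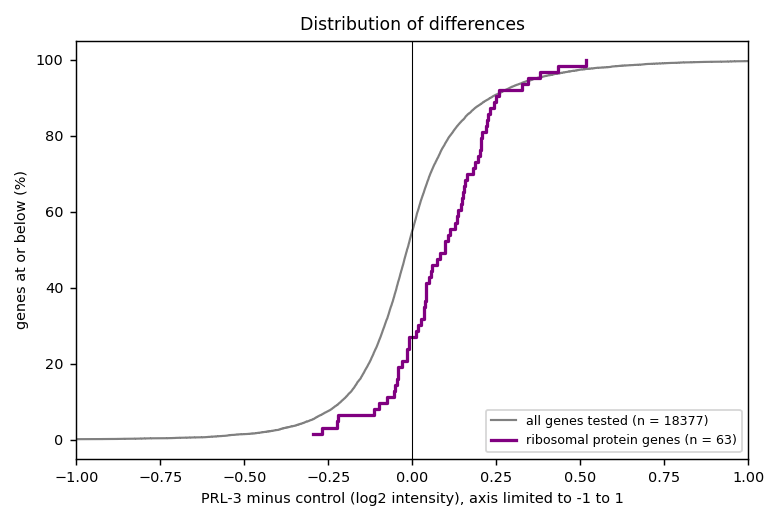
Cumulative share of genes (vertical axis, %) at or below a given difference, PRL-3 minus control in log2 intensity, for the 63 ribosomal protein genes (purple) and all 18377 genes (grey). The purple curve lies to the right of the grey one over most of its length, and its highest value is 0.52.

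RPS27L, a copy of RPS27 known as a target of p53, had the largest difference. It read 6.75, 6.95 and 6.92 on the control arrays and 7.42, 7.33 and 7.41 on the PRL-3 arrays (log2 intensity). All PRL-3 values lay above all control values, and they differed by 0.52 ± 0.078 on the log2 scale (SE), or 1.43-fold (adjusted p = 0.00673, limma). It passed whichever array was left out, with adjusted p of 0.0114 to 0.0407, but not in the unequal-variance test (adjusted p = 0.173). RPS27 itself, a zinc-binding protein of the small subunit, read 12.34, 12.06 and 11.84 on the control and 12.10, 12.26 and 11.86 on the PRL-3 arrays, so the groups overlapped. Its difference was -0.01 ± 0.145 (SE, adjusted p = 0.986, limma), and another probe set of RPS27 gave 0.003. The gap between the differences of RPS27L and RPS27 was 0.53 on the log2 scale, and permuting the per-array gaps between the groups (exact, two-sided) gave p = 0.2, where 0.1 is the smallest that 3 against 3 allows; adjusted over 4 such pairs it was 0.4.

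RPS24, a small subunit protein mutated in Diamond-Blackfan anaemia, read 12.23, 12.05 and 12.14 in control and 12.59, 12.46 and 12.51 in PRL-3 arrays. It was the only member in the top 1% by signal that rose, and its groups did not overlap. The difference was 0.38 ± 0.075 (log2, SE; 1.30-fold, adjusted p = 0.0207, limma). The call was lost without control 2 (adjusted p = 0.1), without PRL-3 4 (0.0982) and without PRL-3 6 (0.0825), with differences of 0.34, 0.35 and 0.38.

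RPS29, a small zinc-binding protein of the small subunit and another Diamond-Blackfan gene, read 7.59, 7.66 and 7.85 in control and 8.04, 8.02 and 8.02 in PRL-3 arrays. The PRL-3 values were nearly equal, and control 3 lay closest to them. Its difference of 0.33 ± 0.081 (SE, 1.25-fold) had adjusted p = 0.0484 in limma, just inside the threshold. The call was kept without control 3 (0.016) and lost without each of the others, at adjusted p of 0.086 without PRL-3 5, 0.142 without control 1, 0.146 without PRL-3 6, 0.164 without PRL-3 4 and 0.182 without control 2. It was also lost after quantile normalization and after a shift of each array to 1 median (adjusted p = 0.111 and 0.0522, limma).

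RPL17, a large subunit protein near the exit of the peptide tunnel, read 8.42, 8.25 and 8.37 in control and 8.90, 8.61 and 8.82 in PRL-3 arrays on its own probe set. The groups did not overlap, and the difference was 0.43 ± 0.092 (SE, 1.35-fold, adjusted p = 0.028, limma). The other probe sets that carry the RPL17 symbol are shared with the read-through transcript RPL17-C18orf32 and are far brighter. They differed by 0.12 and 0.11 (adjusted p = 0.442 and 0.507 over all probe sets, limma), so the size of the RPL17 difference depended on the probe set. The call on the first was lost without control 1 (adjusted p = 0.0506), control 2 (0.126), PRL-3 4 (0.115) and PRL-3 6 (0.111).

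RPL39L, a copy of RPL39 best known from male germ cells and some tumours, read 8.25, 8.09 and 8.14 in control and 8.46, 8.58 and 8.48 in PRL-3 arrays. The groups did not overlap, and the difference was 0.35 ± 0.074 (SE, 1.27-fold, adjusted p = 0.0282, limma). It passed without control 1 (0.0367) but not without control 2 (0.127), control 3 (0.0518), PRL-3 4 (0.0853), PRL-3 5 (0.066) or PRL-3 6 (0.0937). RPL39 lay only on shared probe sets, which differed by 0.28 and 0.27 and did not pass (adjusted p = 0.24 and 0.29, limma). RPL39 and RPL39L are near-identical in protein, and the table does not say how far their probes can be told apart.

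**Figure D3:**
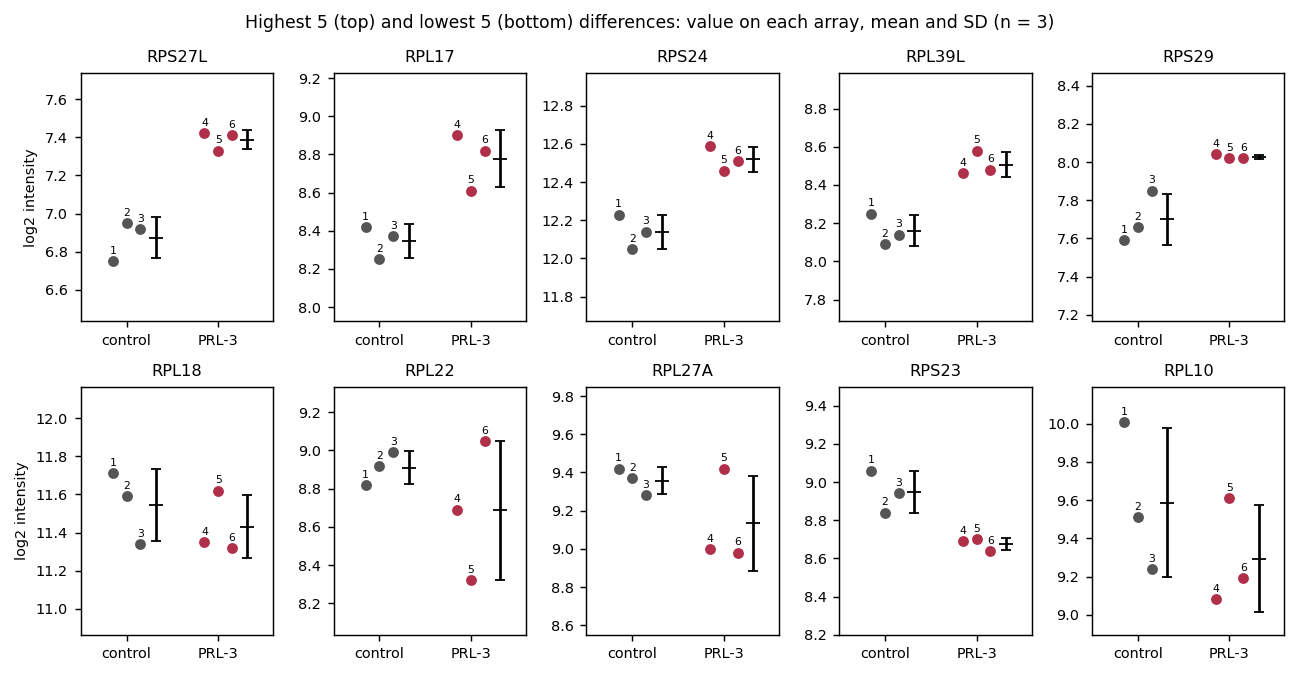
Log2 intensity on each array (points, numbered as the arrays) with the mean and SD (n = 3) for the 5 ribosomal protein genes with the highest differences (top) and the 5 with the lowest (bottom); each panel spans the same range of the log2 scale. In the top row all PRL-3 points lie above all control points, and in the bottom row the groups overlap in all panels but that of RPS23.

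The start sites of these genes are shown because ribosomal protein messages are known for a TOP tract at their start, which some other messages have too. Of the 63 members 52 matched a promoter in the RefSeq table of GRCh38.p14 by symbol. Sequences run from 60 bases before the annotated start to 20 from it, 5′ to 3′ on the gene's strand, and capitals mark the longest unbroken run of C and T that reaches within 20 bases of the start. The first 4 are genes that rose, and the next 4 are RPS27, RPS6, RPS23 and RPL27A, which did not pass. These last 4 were chosen by name, with no rule. All of them start at C followed by at least 4 more C or T, as do 34 of the 48 promoters of members that did not pass. RPL10, RPL10A, RPL32 and RPS4X, among others that did not pass, start at A instead.
RPS27L: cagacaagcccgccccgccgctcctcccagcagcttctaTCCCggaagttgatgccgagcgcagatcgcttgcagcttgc
RPL17: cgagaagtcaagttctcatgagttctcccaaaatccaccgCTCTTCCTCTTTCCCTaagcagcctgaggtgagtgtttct
RPS24: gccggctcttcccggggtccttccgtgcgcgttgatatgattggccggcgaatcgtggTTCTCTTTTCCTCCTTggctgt
RPS29: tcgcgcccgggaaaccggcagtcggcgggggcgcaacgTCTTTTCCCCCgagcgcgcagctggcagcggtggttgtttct
RPS27: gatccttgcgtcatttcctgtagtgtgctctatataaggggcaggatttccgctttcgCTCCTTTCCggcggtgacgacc
RPS6: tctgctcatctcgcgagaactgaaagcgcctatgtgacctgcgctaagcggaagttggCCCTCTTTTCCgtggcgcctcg
RPS23: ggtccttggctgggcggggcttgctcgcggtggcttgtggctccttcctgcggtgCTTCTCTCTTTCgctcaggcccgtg
RPL27A: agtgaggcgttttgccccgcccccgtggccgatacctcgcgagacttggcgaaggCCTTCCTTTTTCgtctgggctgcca
They lie at chr15:63157458-63157537 (- strand), chr18:49492446-49492525 (- strand), chr10:78033803-78033882 (+ strand), chr14:49598691-49598770 (- strand), chr1:153990702-153990781 (+ strand), chr9:19380217-19380296 (- strand), chr5:82278335-82278414 (- strand) and chr11:8682732-8682811 (+ strand), in that order, each spanning the start of the gene's first exon. RPL39L is not shown.

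A start at C followed by at least 4 more C or T on the gene's strand, the letters of a TOP tract, was found in 35 of 52 member promoters (67.3%) and in 4.04% of the 27305 promoters of the table. Of the 4 risen genes with a promoter it was found in 1, RPS24, whose run went on for 14 bases from the start. In RPL17 a run of 16 bases ended 4 bases before the annotated start, and in RPS29 a run of 11 ended 11 bases before it. In RPS27L the longest run that reached within 20 bases of the start was of 4, with longer ones further upstream. Annotated starts can lie some bases from those a cell uses, and the arrays do not measure start sites or translation. Of the 48 member promoters whose genes did not pass, 34 had such a start. The letters CCGGAAG on either strand, the core of many ETS factor sites, stood within the 300 bases of 18 member promoters (34.6%) against 10.7% of all promoters, and AAGATGGC on either strand, a YY1-like word, in 5 (9.62%) against 3.03%. TATAAA between 40 and 16 bases before the start was found in 2 (3.85%) against 2.54%. Of the risen genes RPS27L alone had CCGGAAG. A match is a description of letters, not a bound site.

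Of 24 small subunit members 3 rose and 0 fell, with a median difference of 0.10, and of 39 large subunit members 2 rose and 0 fell, with a median of 0.05, where 4.58% of all genes were called higher and 3.11% lower. The difference lay above 0 in 19 of 24 and 27 of 39, and the gap between the subunits was not tested. Groups of arrays did not overlap in 16 members in the higher direction, where 12.1% of all genes were so, and in 1, RPS23, in the lower, where 12.2% were. Of the 1787 other genes in the top 10% of signal, 332 were so in the higher and 293 in the lower direction. Besides the 5 that rose, the 16 held RPL37A, RPL27, FAU, RPS16, RPL35, RPS20, RPL26, RPLP2, RPL35A, RPL11 and RPL36AL, at differences of 0.13 to 0.23 with adjusted p of 0.111 to 0.356 in limma.

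RPL5 and RPL11, which bind 5S RNA and can also hold the p53 ubiquitin ligase MDM2, differed by 0.13 ± 0.097 and 0.15 ± 0.074 (SE; adjusted p = 0.534 and 0.333, limma). RPL11 read 11.69, 11.81 and 11.88 in control and 11.99, 11.93 and 11.91 in PRL-3 arrays. Its groups did not overlap by a narrow margin, and those of RPL5 did, since PRL-3 5 read 12.24 below the lowest control of 12.28. Of the acidic stalk, which calls elongation factors to the ribosome, RPLP1 differed by 0.04 ± 0.15 and RPLP2 by 0.19 ± 0.088 (SE; adjusted p = 0.941 and 0.29, limma). RPLP1 changed sign after quantile normalization (-0.05), without control 3 (-0.09) and without PRL-3 5 (-0.09).

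RPS6, the phosphorylated target of the S6 kinases, was level between the groups within its error. It read 12.87, 12.81 and 12.79 in control and 12.81, 12.78 and 12.82 in PRL-3 arrays, a difference of -0.02 ± 0.063 (SE, adjusted p = 0.939, limma) that turned to 0.008 without control 1. RPS14, the gene of the 5q- syndrome, differed by 0.06 ± 0.12 (SE, adjusted p = 0.863, limma) and turned to -0.05 without control 3 and -0.03 without PRL-3 5. RPS19, the most often mutated gene of Diamond-Blackfan anaemia, differed by 0.20 ± 0.1 (SE, adjusted p = 0.323, limma), with control 1 (11.15) above the lowest PRL-3 value (11.12). FAU, made as a fusion of a ubiquitin-like protein with ribosomal protein S30, differed by 0.22 ± 0.093 (SE, adjusted p = 0.233, limma).

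Of 23 genes listed as linked to Diamond-Blackfan anaemia 18 were measured, and 3 rose (RPL17, RPS24 and RPS29) and 0 fell, where 4.58% of all genes were called higher and 3.11% lower. Their median difference was 0.18, against 0.10 for all 63 members, of which they are part. The difference lay above 0 in 16 of the 18, against 46 of the 63 members and 45.1% of all genes. The gap between this list and the other members was not tested. Without control 2, PRL-3 4 or PRL-3 6, 0 of the 18 passed, and without control 1 a single one did. Of the 6 paralog members, which are copies of other ribosomal protein genes, RPS27L and RPL39L rose and the others did not pass. RPL36AL, a copy of RPL36A, differed by 0.13, RPS4Y1, the Y-linked copy of RPS4X, by 0.11, RPL3L, best known from muscle, by 0.04, and RPL10L, best known from testis, by 0.01. RPL3L and RPL10L lay at the 41.0 and 40.7 percentile of signal. RPL3L turned to -0.02 without control 1 and RPL10L to -0.07 without PRL-3 5. In an exact permutation test of each copy against its partner over 4 pairs, the gap was 0.15 for RPS4Y1 and RPS4X (p = 0.1, the smallest possible), 0.31 for RPL10L and RPL10 (p = 0.3) and 0.09 for RPL3L and RPL3 (p = 0.7), all with adjusted p of at least 0.4.

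At the low end, 0 members passed. RPS23, a protein of the decoding centre, read 9.06, 8.84 and 8.94 in control and 8.69, 8.70 and 8.64 in PRL-3 arrays. Its groups did not overlap, with a difference of -0.27 ± 0.077 (SE, adjusted p = 0.0796, limma). RPL10, which helps form the peptidyl transferase centre, had the lowest difference, -0.30 ± 0.2 (SE, adjusted p = 0.51, limma). It read 10.01, 9.51 and 9.24 in control and 9.08, 9.61 and 9.19 in PRL-3 arrays, so control 1 alone stood far above, and without it the difference was -0.08. RPL27A differed by -0.22 ± 0.12 (SE, adjusted p = 0.366, limma), with PRL-3 5 (9.42) level with the highest control (9.42), and the other PRL-3 arrays below the lowest control (9.28), down to 8.98. Without PRL-3 5 it passed in the lower direction (-0.37, adjusted p = 0.0358, limma). RPL22, an RNA-binding protein that cells can do without, differed by -0.22 ± 0.16 (SE, adjusted p = 0.542, limma), with PRL-3 5 lowest at 8.32 and PRL-3 6 highest at 9.05. RPL18 differed by -0.11 ± 0.12 (SE, adjusted p = 0.69, limma). RPL10, RPL22 and RPL10A had the largest SD within a group (0.39, 0.36 and 0.33), and RPL10A changed sign from -0.10 to 0.08 without control 1.

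Some of the members shared a pattern within groups that cut across the comparison, and many other genes on the array had it too. Control 1 and PRL-3 5, which define it, were picked from these same data. In 29 of 63 members control 1 was the highest control and PRL-3 5 the highest PRL-3 array (46%, against 23.7% of all genes), among them RPL10, RPL10A, RPL18, RPL29, RPL36, RPLP1, RPS15, RPS19 and RPS27. In another 12 (19%, a share near the 20.9% of all genes), among them RPL22, RPL24, RPL38, RPS20 and RPS27L, both were the lowest of their group. Control 3 was the lowest control in 34 members (54%, against 37.7%). Median differences were 0.04 in the 29 members, 0.17 in the 12 and 0.13 in the other 22. What these arrays share was not tested, and the labels name no batch. Without control 1 and PRL-3 5, 4 members passed as higher in limma (RPL17, RPL39L, RPS24 and RPS27L) and 0 as lower, where 4.12% and 2.23% of all genes did, and the median difference was 0.12. The median SD within groups was 0.11 for the members and 0.11 for all genes.

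**Figure D4:**
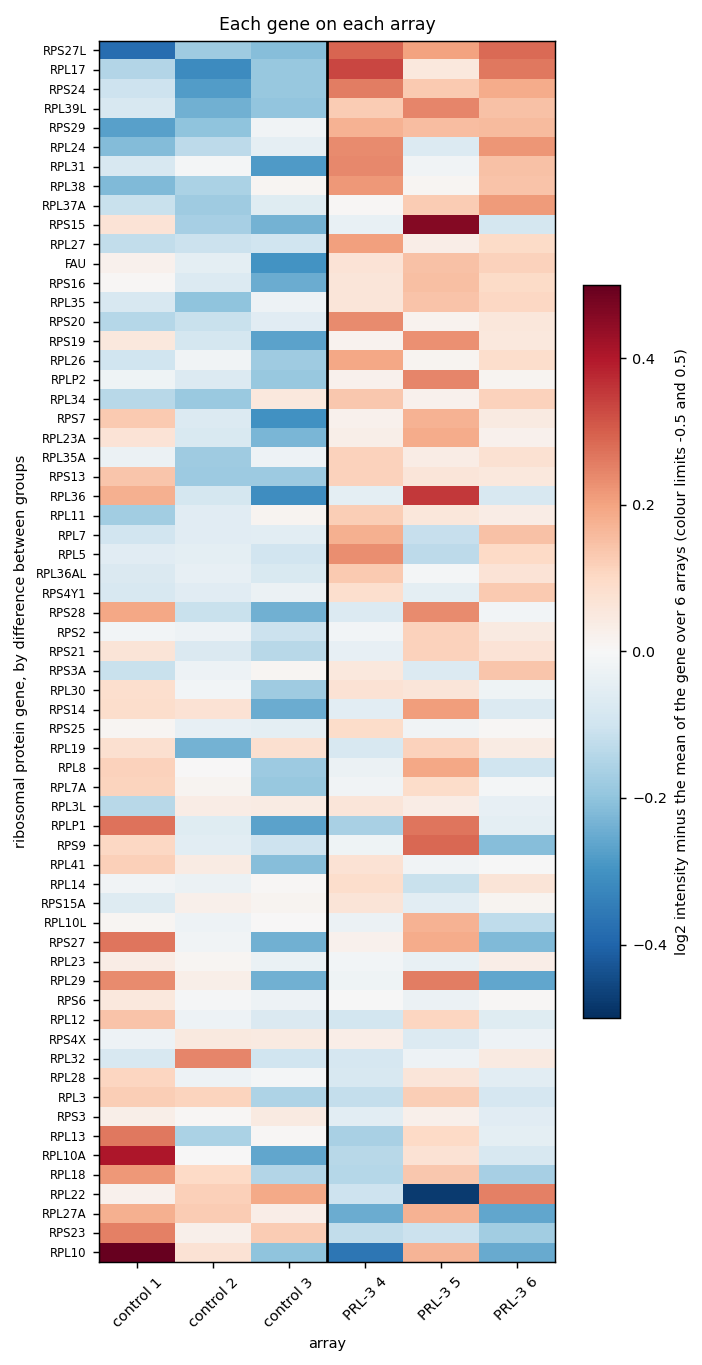
Each of the 63 ribosomal protein genes (rows, ordered by the difference between groups) on each of the 6 arrays (columns), as log2 intensity minus the mean of that gene over the arrays; red is above and blue below. Besides the step between groups in the upper rows, control 1 and PRL-3 5 are red together and control 3 is blue in many rows, among them RPLP1, RPS27 and RPL29.

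Of the 17 members with more than 1 probe set of their own, 3 (RPL12, RPL34 and RPS27) held differences of both signs and 0 held a probe set past the threshold. RPL34 was the widest, at 0.18 on the brighter probe set and -0.23 on the other; RPL12 ran from -0.06 to 0.01. In 7 of the 17 the differences of the probe sets spread by over 0.10. Besides RPL34, the 7 held RPL41 (0.04 to 0.24), RPS15 (0.01 to 0.22) and RPL27A (-0.22 to -0.06). The rest of them were RPS3A with 5 probe sets (0.01 to 0.15), RPS7 (0.03 to 0.16) and RPS25 (0.06 to 0.16). RPL5, with 3 probe sets, was not among the 7 and ran from 0.10 to 0.13. Ribosomal protein genes have many processed pseudogenes and near-identical copies, so a probe set may read more than its named gene, and close values on probe sets of a gene are no separate measurements.

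Of 47 probe sets that carry a member symbol beside others, 1 was higher with PRL-3, 0 were lower and 46 did not pass (limma over all 28869 probe sets, where 2.87% were higher and 1.98% lower). It was 1 of 6 for RPS26, a small subunit protein and frequent Diamond-Blackfan gene, and is shared with a pseudogene, PDPK1 and LOC100996747. It read 7.94, 7.90 and 7.78 in control and 8.24, 8.25 and 8.14 in PRL-3 arrays, a difference of 0.33 ± 0.07 (SE, adjusted p = 0.0436, limma). The groups did not overlap, but the call was lost whichever array was left out (adjusted p = 0.0795 to 0.165), and the other RPS26 probe sets differed by 0.21 to 0.28. Shared RPL36A probe sets differed by 0.21 to 0.26 and those of RPL9 by 0.19 to 0.21. Those of RPL21, RPL6, RPL41 and RPS18 lay between 0.00 and 0.09, and that of RPL13A at -0.12. Probe sets of RPL10 ranged widest, from -0.39 where shared with SNORA70 to 0.37 where shared with NDUFS5, DNASE1L1 and SNORA70, and the brightest, at 12.37 over all arrays, gave -0.06. Over the 47 the median was 0.09, against -0.009 over all probe sets, and 39 lay above 0. The share above 0 over all probe sets was not counted. The 47 carry the symbols of 20 genes of the rule, some on several probe sets with near-equal values, so they are no separate measurements.

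**Figure D5:**
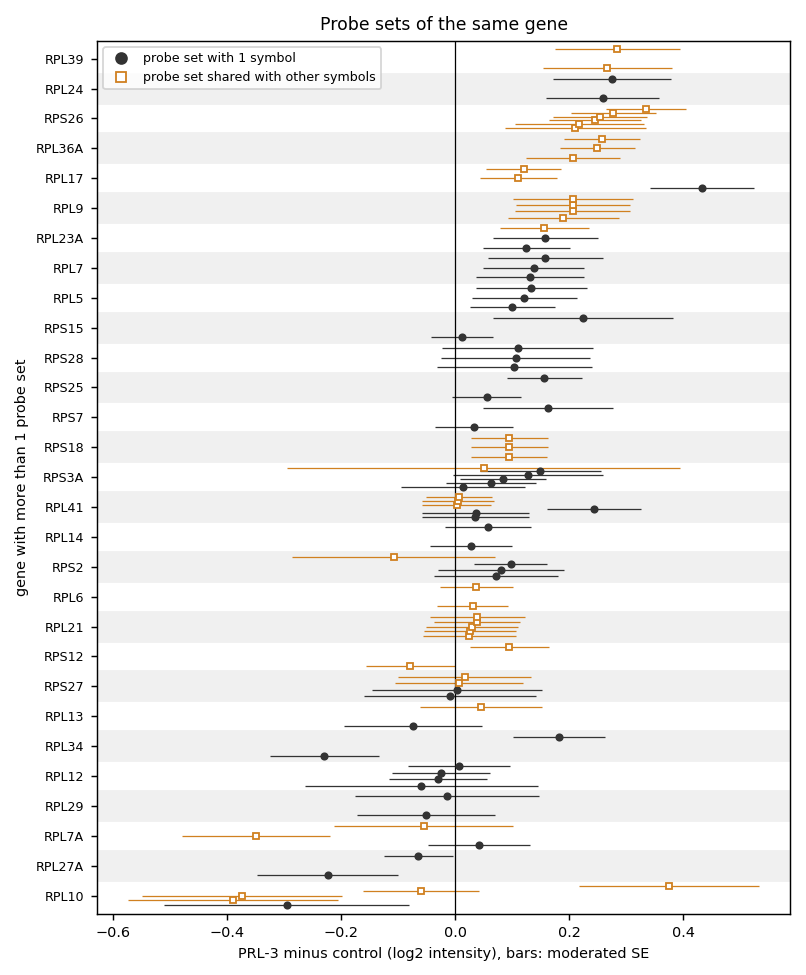
Difference, PRL-3 minus control in log2 intensity with the moderated SE, for all 92 probe sets of 29 genes that are read by several; filled circles carry 1 symbol and open squares are shared with other symbols. Probe sets of RPL9, RPL21 and RPS18 lie close together and those of RPS26 run from 0.21 to 0.33, while those of RPL10, RPL34, RPL7A and RPL17 are spread.

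The counts of the pathway lists below stand beside 4.58% of all genes called higher and 3.11% called lower. Of the ribosomal genes whose symbols the rule does not take, 4 of 6 were measured. RPL22L1, the copy that can stand in for RPL22, read 6.43, 6.32 and 6.56 in control and 6.75, 6.72 and 6.89 in PRL-3 arrays. Its groups did not overlap and it rose by 0.35 ± 0.087 (SE, adjusted p = 0.0472, limma). It kept the call without control 3 (0.027) and lost it without any other single array, at adjusted p of up to 0.182. RPL26L1 differed by 0.36 (adjusted p = 0.107), RPS4Y2 by 0.06 (0.776) and RPL7L1 by -0.22 (0.357, all in limma).

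Of 41 measured translation factors 4 rose and 1 fell, with a median difference of -0.003. EIF2S3, the gamma subunit of the factor that carries the initiator tRNA, rose by 0.44, EIF1, which guards the choice of start codon, by 0.42, EIF2B2, of the factor that recharges eIF2, by 0.32, and the helicase gene EIF4A2 by 0.29. EEF1B2, the exchange factor of elongation factor 1, fell by 0.32 (adjusted p of these 5 in limma 0.00779 to 0.039). EIF1 alone of them kept its call whichever array was left out. EIF2S3 lost its call without PRL-3 6 (0.0551), and EIF2B2, EIF4A2 and EEF1B2 each without control 1, control 2, PRL-3 4 and PRL-3 6 (adjusted p up to 0.1, 0.159 and 0.134, limma). EIF4A2 also lost its call after quantile normalization, with the mean of its probe sets and on the least bright of them. The intensity trend took the calls of EIF2B2 and EEF1B2, and none of the 5 passed in the unequal-variance test. Of 18 measured genes with TOP messages that are not members, 0 rose and 1, EEF1B2, fell, with a median of 0.08; 14 lay above 0, and 10 stand in the translation factor list too.

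Of 31 measured escorts and late assembly factors 1 rose and 2 fell, with a median of -0.04. PDCD2L, a relative of the RPS2 escort PDCD2, rose by 0.38, while RRS1, which helps build the 5S particle into the large subunit, dropped by 0.36, and LSG1, a GTPase of late large subunit maturation, by 0.39 (adjusted p = 0.0375, 0.0236 and 0.0455, limma). All 3 lost their call without control 1, control 2, PRL-3 4 or PRL-3 6 (adjusted p up to 0.137, 0.104 and 0.157). They also lost it in the unequal-variance test, PDCD2L and LSG1 with the intensity trend, and PDCD2L after quantile normalization. Of 21 S6 kinases and regulators of TOP messages 1 rose and 0 fell, with a median of -0.06. It was PDCD4, an inhibitor of the helicase eIF4A that S6 kinase marks for destruction, at 11.14, 11.15 and 11.45 in control and 12.08, 11.94 and 12.14 in PRL-3 arrays. Its difference of 0.81 ± 0.1 (SE, adjusted p = 0.00347, limma) passed whichever array was left out, but not in the unequal-variance test (adjusted p = 0.162). Of 20 genes of ribosome stalling 0 passed in either direction, with 0 at an unadjusted p under 0.05 and a median of -0.01. Of 22 subunits of RNA polymerases I and III 0 rose and 3 fell, POLR1B, POLR1A and POLR3C (-0.70, -0.46 and -0.55; adjusted p = 0.00208, 0.0116 and 0.0197, limma), with a median of -0.04. POLR1A lost its call without control 2 or PRL-3 4 (adjusted p up to 0.0669) and POLR3C without control 1, control 2, PRL-3 4 or PRL-3 6 (up to 0.0957). POLR1B passed whichever array was left out, but none of the 3 passed in the unequal-variance test (adjusted p = 0.122 for POLR1B).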

How the data were processed

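Total RNA (100 ng per sample, Qiagen RNeasy) was labelled as biotinylated cDNA with Nugen kits, per the labels' protocols. The authors deposited a table of 28869 probe sets with an intensity for each array; it is linear and positive, and background correction, summary and normalization are not given in the sources used here. Median intensity of the genes lay between 110 and 113 on all 6 arrays, close enough to look normalized between arrays, so differences are relative to the bulk of genes. The number of arrays limits the precision.

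Log2 intensity was taken with no offset. Probe sets were named by the platform annotation: 19310 had 1 symbol, 1752 several and 7807 none here. The brightest 1-symbol probe set stood for a gene, and all 63 members matched RefSeq (GRCh38.p14) by Entrez identifier. The groups were set against each other in limma (version 3.58.1, under R 4.3.3; lmFit, eBayes), two-sided, Benjamini-Hochberg adjusted over 18377 genes, threshold 0.05; shared probe sets were fitted with all 28869. SE are moderated, SD are over 3 arrays. No probe was left out as dim, since no detection call was used. The script was tested on simulated data. No set test was run.

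Members and lists were chosen with earlier results of these data known. Named members were those past the threshold, the 5 highest and 5 lowest, the 3 with the largest SD, preset ones (RPL5, RPL11, RPS6, RPS14, RPS19, RPSA, FAU, RPS27A, stalk and paralog members) and those whose probe sets differ in sign or call; of other lists, up to 4 past the threshold. Others were named in counts after their values were seen. Alternatives were quantile normalization, a median shift, a trend of the variance with intensity (robust), array weights, genes above the median level, the mean or the least bright of a gene's probe sets, an unequal-variance test and leaving out each array. Leaving out control 1 with PRL-3 5, and fitting all probe sets, were added after the data were seen. Figures used matplotlib 3.10.9.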

Additional observations from a re-analysis of the deposited data

How the results depend on the processing

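No paired analysis was possible because the arrays are numbered 1 to 3 and 4 to 6, with no number shared between groups. The count of members higher with PRL-3, 5, was 3 with an intensity trend and robust variances (RPL17, RPS24 and RPS27L), 14 with array weights, which are tuned on the spread of these arrays, 0 in the unequal-variance test, and 1 to 4 with 1 array left out. It was 1, RPS27L, without control 2, PRL-3 4 or PRL-3 6, with fewer samples, and 3 without control 1. The count lower, 0, was 2 with array weights (RPL27A and RPS23) and ran from 0 to 1 with 1 array left out, RPL27A being lower, and RPL24 higher, without PRL-3 5. The median difference, 0.10, was 0.033 after quantile normalization and 0.05 (without control 3) to 0.12 with 1 array left out. The single shared probe set called higher was 0 without any 1 of the 6 arrays. All these counts come from 3 arrays a group; the causes were not tested.

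Of 414 values of named members under 16 alternatives, 357 kept their direction and their side of the threshold, 29 lost the call, 4 gained one and 24 turned sign, all of them in members that had not passed. RPL34 passed with array weights (0.28). Quantile normalization turned RPLP1 to -0.046. Array weights turned RPS14 to -0.081, RPLP1 to -0.033 and RPL10L to -0.021. The mean of probe sets turned RPL34 to -0.024, and the least bright probe set turned it to -0.23 and RPS27 to 0.0033. Without control 1, RPL10A was 0.080, RPS6 0.0076, RPL3L -0.021, RPL12 0.034 and RPS27 0.124; without control 3, RPS14 was -0.051 and RPLP1 -0.088. Without PRL-3 4, RPL12 was 0.0094; without PRL-3 5, RPS14 was -0.032, RPLP1 -0.087 and RPL10L -0.073; without PRL-3 6, RPS27 was 0.099. With single arrays left out these members ran from -0.252 to 0.080 (RPL10A), -0.088 to 0.182 (RPLP1), -0.021 to 0.071 (RPL3L), -0.073 to 0.078 (RPL10L), -0.092 to 0.034 (RPL12) and -0.130 to 0.124 (RPS27). Without both control 1 and PRL-3 5, RPL10A was 0.021, RPS6 0.018, RPL3L -0.030, RPL10L -0.066 and RPS27 0.029.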
